A study of Homo sapiens with 27 samples.

Results

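Heavy polysomes of A549 cells, an established human line of non-small cell lung cancer, were compared after cisplatin and after vehicle, with 3 libraries a side. These are 6 of the 27 libraries of the series and were chosen by their titles. Vehicle was DMSO and cisplatin was given at 100 µM. The time of exposure is not given in the sources used here. All 6 libraries hold poly(A)+ RNA from the heavy polysome fraction, sequenced by 3′-seq, which counts reads at the 3′ ends of transcripts. Same-numbered libraries were taken as pairs. The labels do not say whether replicates came from separate cultures, so the spread between them may be technical. Peaks of the 6 deposited lists that overlapped on a strand gave 167740 merged peaks. The 22827 of them listed in all 6 libraries were tested and are called measured ends. Ends are named by position in hg19 and strand, because the lists carry no gene names and no annotation of that build was used here. The A549 identity was for the same reason not checked against marker genes.

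Cisplatin binds DNA and forms adducts and crosslinks that block replication and transcription, and cells answer with a damage response in which p53 activates target genes. Heavy polysomes hold the messenger RNAs that carry many ribosomes, so their 3′ ends report which transcript ends are present in strongly loaded messenger RNA. Many genes end at more than 1 place. An end used early, for instance within an intron, gives a shorter transcript than the last end of the gene, and a gene's ends then move relative to each other.

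Total counts ran from 3609493 to 11997535 per library. The lists of replicates 1 and 2 held 77.1% to 78.1% of their own peak numbers, whereas those of replicate 3 held 31.7% with DMSO and 30.6% with cisplatin. Measured ends therefore held 51.1% to 57.7% of the counts in replicates 1 and 2 and 94.9% to 95.5% in replicate 3. The split ran between replicates and not between treatments, and the fit has a term for each replicate number.

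After cisplatin, 1120 of 22827 measured ends rose (4.91%) and 1269 fell (5.56%) at an adjusted p below 0.05 in edgeR's quasi-likelihood test. Of these 2389 called ends, 2387 moved in the called direction in each of the 3 pairs. The calls were made on these same pairs, so such agreement follows largely from the calling and is no separate check. The share of all measured ends that moved 1 way in every pair is not given here. The median log2 change, on which 1 stands for a doubling, was 1.06 for the risen ends and -1.19 for the fallen ones, against -0.007 over all measured ends. A log2 change of at least 1 was reached by 617 of the risen and 820 of the fallen ends, and one of at least 2 by 77 and 82. Risen ends had the higher level, with a median of 28.8 CPM, the counts scaled to each library's total of measured counts times its TMM factor, against 18.1 CPM for fallen ends and 9.36 CPM for all measured ends. The values are shares of a library, so an end used by fewer cells and one with less RNA per cell cannot be told apart. The scaling was set over these same measured ends and holds their median change near 0. A gain or loss common to most ends would therefore not show. With library totals as scaling, chosen after seeing the data, 1274 ends rose and 1097 fell.

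The count depended on the pairing and on the libraries. Without the term for the replicate number, 277 ends were called, 154 higher and 123 lower. Leaving out the pair of replicate 3 gave 5165 calls, leaving out that of replicate 1 gave 1270 and leaving out that of replicate 2 gave 773. In the longer lists of replicates 1 and 2 alone, 2942 of 63682 ends rose (4.62%) and 3198 fell (5.02%).

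**Figure D1:**
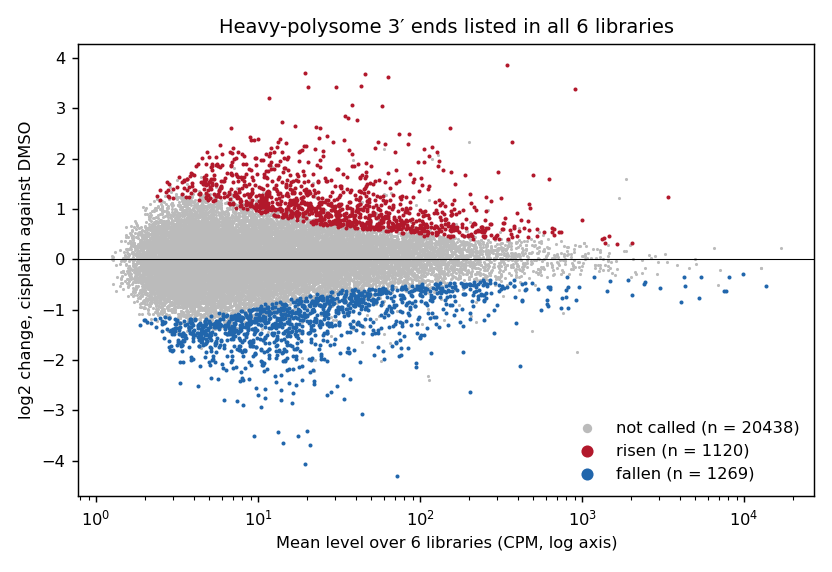
Each point is 1 of 22827 measured ends, with the mean level over the 6 libraries in CPM on a log axis and the log2 change of cisplatin against DMSO on the other. The 1120 risen ends are red, the 1269 fallen ends are blue, and at low levels larger changes were needed for a call.

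The steepest rise was at chr6:36654213-36655186 on the plus strand. This end had 35.9, 33.2 and 67.0 CPM in the DMSO libraries and 546, 529 and 866 CPM in the cisplatin libraries, in the order of replicates 1, 2 and 3. The lowest cisplatin library thus lay several times above the highest DMSO library. The log2 change was 3.87 ± 0.13 (SE, adjusted p = 5.56e-08), and the pairs rose 15.2-fold, 16.0-fold and 12.9-fold.

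The most abundant of the 12 steepest rises was at chr17:72858611-72858912 on the minus strand. It had 188, 161 and 129 CPM with DMSO and 1877, 1609 and 1468 CPM with cisplatin, so the replicates of a group lay close together and the groups far apart. Its log2 change was 3.38 ± 0.11 (SE, adjusted p = 5.56e-08), and its pairs rose 9.99-fold, 10.0-fold and 11.4-fold.

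A pair of ends less than 1 kb apart on the plus strand of chromosome 12 were both among the 12. The first, at chr12:69237659-69238124, rose from 4.45, 5.75 and 9.74 CPM to 89.0, 72.7 and 91.3 CPM (log2 change 3.67 ± 0.23 SE, adjusted p = 1.88e-05). The second, at chr12:69238917-69239217, was weaker and rose from 1.59, 2.21 and 2.86 CPM to 25.5, 19.95 and 18.2 CPM (log2 change 3.20 ± 0.32 SE, adjusted p = 2.60e-04). Further ends lay just upstream on the same strand that were listed mainly after cisplatin. The end at chr12:69233054-69233571 had 15, 71 and 127 reads with cisplatin and stood in no DMSO list, and that at chr12:69236866-69237318 had 11, 32 and 20 reads and stood in no DMSO list either. A missing entry is not a count of 0, since lists skip peak numbers, the DMSO lists holding 31.7% to 77.8% of theirs. Skips were sought between the nearest listed peaks on either side, over both strands. All 3 DMSO lists skipped a number around the first of these ends and 1 of the 3 around the second. A skipped number may belong to another peak there, and neither end was tested. The end at chr12:69235749-69236191 had 47, 75 and 89 reads with cisplatin and 9 reads in DMSO replicate 2 alone.

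Other steep rises were at ends that were rare with DMSO. The end at chr6:109307637-109307896 on the minus strand went from 3.82, 2.51 and 2.00 CPM to 23.6, 37.1 and 47.3 CPM (log2 change 3.69 ± 0.33 SE). That at chrX:71346954-71347174 on the minus strand went from 4.14, 5.60 and 4.58 CPM to 50.6, 40.5 and 75.3 CPM (log2 change 3.43 ± 0.26 SE). That at chr1:203278542-203278753 on the plus strand went from 2.23, 3.24 and 4.01 CPM to 35.2, 22.9 and 54.1 CPM (log2 change 3.43 ± 0.28 SE). At each of these the groups did not overlap, as is likely for ends picked by the size of their change. How often this held over all measured ends was not counted. The end at chr1:45271485-45271670 on the plus strand, the last of the 12, rose from 10.2, 5.60 and 9.45 CPM to 61.6, 43.0 and 76.6 CPM (log2 change 2.85 ± 0.20 SE), while the strongest end within 60 kb upstream of it, at chr1:45244246-45244455, had 2044, 4022 and 2241 reads with DMSO and 2047, 3828 and 2733 with cisplatin.

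The other 4 of the 12 had a replicate 3 that stood apart. The end at chr10:134018889-134019286 on the plus strand had 3.18, 7.22 and 20.9 CPM with DMSO and 94.97, 81.3 and 175 CPM with cisplatin. The end at chr1:949649-949926 on the plus strand had 4.45, 6.19 and 6.59 CPM with DMSO and 39.9, 34.9 and 167 CPM with cisplatin. In both, as at most of the 12 rises, the cisplatin library of replicate 3 was the highest of the 6. The end at chr14:105946335-105946523 on the plus strand had 1.59, 2.80 and 28.6 CPM with DMSO and 38.7, 37.4 and 120 CPM with cisplatin. The end at chr19:40928344-40928770 on the minus strand had 6.998, 9.29 and 18.04 CPM with DMSO and 51.6, 58.7 and 206 CPM with cisplatin. All 4 rose in each pair, with log2 changes of 3.62 ± 0.27, 3.44 ± 0.38, 3.07 ± 0.39 and 3.03 ± 0.21 (SE) in the order given. Without the replicate term their adjusted p-values were 0.0788, 0.0668, 0.411 and 0.0921 in edgeR, above the threshold.

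**Figure D2:**
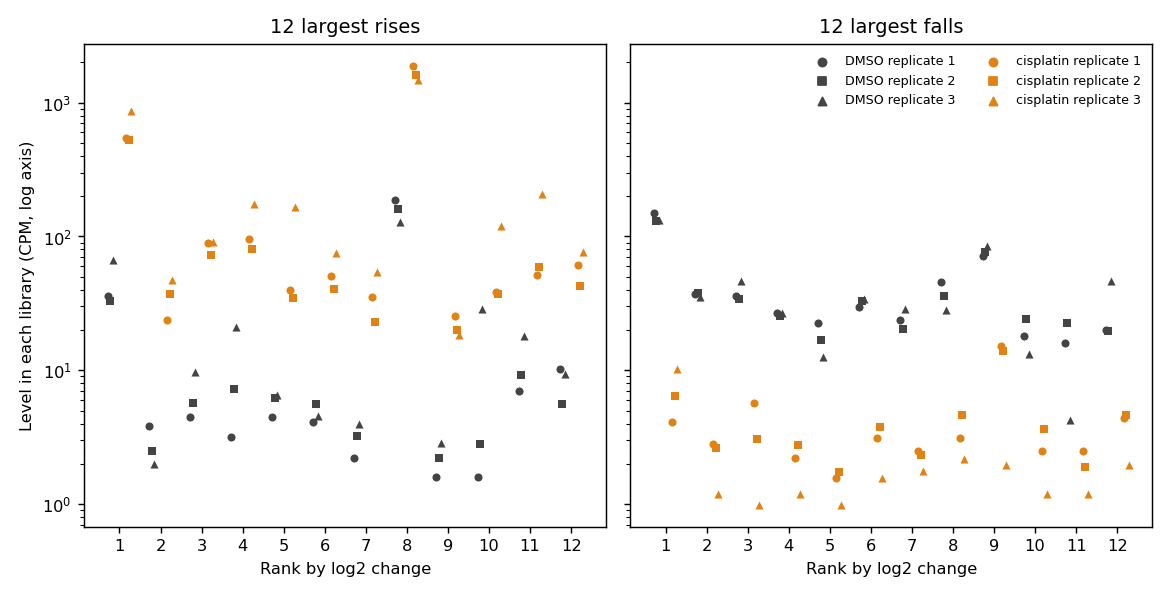
Levels of the 12 steepest rises (left) and the 12 steepest falls (right) in each of the 6 libraries, in CPM on a log axis. Dark symbols are DMSO, orange symbols cisplatin, and the symbol shape gives the replicate; at rise 1 the cisplatin libraries lie at 529 to 866 CPM, and at fall 1 at 4.09 to 10.3 CPM.

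The steepest fall was at chr7:133750238-133750521 on the plus strand. It had 149, 131 and 132 CPM in the DMSO libraries and 4.09, 6.41 and 10.3 CPM in the cisplatin libraries. The DMSO libraries were close to each other and all cisplatin libraries were low. The log2 change was -4.30 ± 0.25 (SE, adjusted p = 1.32e-05), and DMSO stood 36.5-fold, 20.4-fold and 12.9-fold above cisplatin in the pairs. An end upstream on the same strand, at chr7:133706454-133706522, which the lists of replicate 3 did not hold, had 32 and 64 reads with DMSO and 16 and 64 with cisplatin.

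The next was at chr7:1855424-1855640 on the minus strand, with 36.9, 37.9 and 35.2 CPM with DMSO and 2.83, 2.62 and 1.19 CPM with cisplatin (log2 change -4.07 ± 0.29 SE, adjusted p = 2.96e-05). The end at chr17:64806621-64806883 on the plus strand went from 35.6, 34.4 and 46.7 CPM to 5.66, 3.06 and 0.990 CPM (log2 change -3.69 ± 0.40 SE, adjusted p = 6.39e-04). Not every end near it fell. Upstream on the same strand, chr17:64789694-64789758, held by the lists of replicates 1 and 2, had 1181 and 1468 reads with DMSO and 1095 and 1634 with cisplatin, whereas chr17:64800615-64800926, between them, had 17, 44 and 26 reads with DMSO and 5 and 8 in the 2 cisplatin lists that held it.

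A pair of measured ends on the minus strand of chromosome 3 fell. The end at chr3:17198653-17198877 went from 29.6, 33.2 and 34.1 CPM to 3.15, 3.79 and 1.58 CPM (log2 change -3.51 ± 0.30 SE). The end at chr3:17201837-17202097 went from 45.8, 35.8 and 28.4 CPM to 3.15, 4.66 and 2.18 CPM (log2 change -3.40 ± 0.27 SE). Between them, chr3:17199452-17199589 had 11, 40 and 12 reads with DMSO and stood in no cisplatin list, so it was not tested.

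On the plus strand of chromosome 10, chr10:81075940-81076307 fell from 20.04, 19.8 and 46.4 CPM to 4.403, 4.66 and 1.98 CPM (log2 change -2.86 ± 0.42 SE). A neighbour 5′ of it, chr10:81075439-81075657, had 39, 103 and 162 reads with DMSO and 8, 26 and 15 with cisplatin. Ends further 3′ on that strand did not follow: chr10:81114107-81114483 had 210, 517 and 160 reads with DMSO and 247, 478 and 421 with cisplatin. On the minus strand of the same chromosome, chr10:34400040-34400159 fell from 23.9, 20.4 and 28.6 CPM to 2.52, 2.33 and 1.78 CPM (log2 change -3.43 ± 0.30 SE).

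The groups did not overlap at the other 5 of the 12 steepest falls either, as is likely for ends picked by the size of their change. Here too, the frequency of this over all measured ends was not counted. The end at chr6:5771600-5771822 on the plus strand went from 26.7, 25.4 and 26.9 CPM to 2.201, 2.77 and 1.19 CPM. The end at chr22:23802818-23802980 on the plus strand went from 22.6, 16.8 and 12.6 CPM to 1.57, 1.75 and 0.990 CPM. The end at chr16:54148231-54148382 on the plus strand went from 18.1, 24.2 and 13.2 CPM to 2.52, 3.64 and 1.19 CPM. Their log2 changes were -3.65 ± 0.31, -3.51 ± 0.32 and -2.93 ± 0.30 (SE). At chr22:23802818-23802980 the cisplatin libraries held 5, 12 and 5 reads, and 5 was the smallest count listed. A count of 5 also stood at chr17:64806621-64806883 in cisplatin replicate 3. Among the rises it stood at chr14:105946335-105946523 and chr12:69238917-69239217 in DMSO replicate 1, so such changes rest on counts at the listing floor. The end at chr6:1624034-1624236 on the minus strand went from 15.9, 22.6 and 4.30 CPM to 2.52, 1.89 and 1.19 CPM, so its replicate 3 was low in both groups. The end at chr17:78939747-78940193 on the plus strand went from 71.6, 77.0 and 84.2 CPM to 15.1, 14.0 and 1.98 CPM, with replicate 3 falling furthest (log2 change -3.07 ± 0.59 SE, adjusted p = 0.0405). This call was lost without replicate 1 (adjusted p = 0.0523), without replicate 2 (adjusted p = 0.0739) and without the replicate term (adjusted p = 0.0869).

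Most neighbouring ends did not both change, and those that did nearly always shared a direction. Of 8628 neighbouring measured ends at most 5 kb apart on a strand, 125 were both risen, 208 both fallen and 4 moved in opposite directions. In 947 a single member was called, and in 7344 neither was. Neighbours this close can belong to 1 transcript unit, so they are not independent.

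Where ends lay in the genome went with the direction of their change. Where 0 to 4 other measured ends lay within 250 kb on either strand, 3.94% of 5053 ends rose and 7.50% fell. With 20 to 39 such neighbours, 6.00% of 3636 ends rose and 3.52% fell. Levels differed along this order, with a median of 7.78 CPM at 0 to 4 neighbours and 12.8 CPM at 20 to 39. Among ends of 20 to 100 CPM alone the falls made up 10.9% at 0 to 4 neighbours and 4.05% at 20 to 39, and the rises 7.74% and 9.58%. The 207 ends with 40 or more neighbours did not continue the order, as 7.73% rose and 7.25% fell. The median log2 change at 0 to 4 neighbours was lower than at 20 or more by 0.05 in replicate 1, 0.07 in replicate 2 and 0.15 in replicate 3. The mean difference of -0.09 had the smallest p that an exact two-sided sign-flip test over 3 pairs allows, 0.25, so the design cannot put it past 0.05. The 12 steepest falls lay in sparse stretches, none of them with 10 or more measured ends within 250 kb, against 8 of the 12 steepest rises and 51.2% of all measured ends.

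The stretch upstream of an end, to the next measured end on its strand, gave a similar picture at its long side. Where it ran 10 to 30 kb, 6.67% of 2428 ends rose and 3.21% fell. Over 300 kb, 3.75% of 4271 rose and 6.86% fell. Falls were also the more common calls at ends within 1 kb of an upstream neighbour, where 3.45% of 5224 rose and 6.34% fell. The stretch is set by where measured ends lie and is not a gene length. By chromosome, ends on chromosome 11 rose at 7.69% and fell at 4.13%, whereas those on chromosome 2 rose at 2.99% and fell at 6.26% and those on chromosome 10 rose at 3.77% and fell at 7.95%. These shares are descriptions over ends, with no test over samples.

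**Figure D3:**
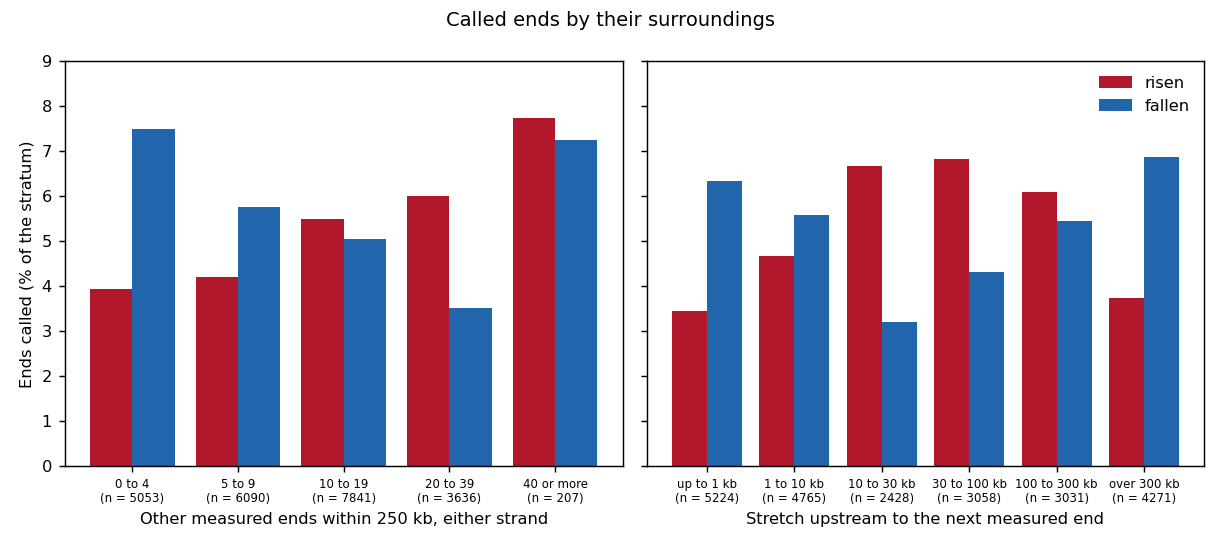
Bars give the percent of measured ends that rose (red) or fell (blue), by the number of other measured ends within 250 kb (left) and by the stretch upstream to the next measured end on the strand (right). Falls go from 7.50% at 0 to 4 neighbours to 3.52% at 20 to 39, and exceed rises again at 6.86% where the upstream stretch is over 300 kb.

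The study's design sets ends within introns against last exons. Without an annotation, each measured end was instead set against the strongest measured end within 50 kb downstream on its strand, where that one was the stronger, with every library given its own term in the fit. Of 10080 such upstream pairs, 11 had a risen share of the upstream end (0.109%) and 27 a fallen share (0.268%). The partners need not belong to 1 gene. Which end of a pair was the stronger was decided on the mean over all 6 libraries, so the change with cisplatin itself took part in choosing the pairs, and the balance of 11 against 27 is a description. In 5 of the 27 pairs with a fallen share the upstream end was not the weaker one in the DMSO libraries, and in 1 of the 11 with a risen share not in the cisplatin libraries. In the other 22 and 10 the upstream end was the weaker one under both treatments. Few ratios thus passed the test, and the count depended on the libraries: 0 were called without replicate 1, 0 without replicate 2 and 86 without replicate 3. In the same order, 692, 563 and 880 of the 10080 ratios had an unadjusted p under 0.05 in edgeR. Without the library terms, which hold the replicate block, 13 were called. With a further term for the ratio in each replicate, chosen after seeing the data, 142 upstream shares rose (1.41%) and 190 fell (1.88%). In the same fit, of 7919 mirror pairs, in which the weaker end lies downstream of the stronger one, 177 had a risen share of the weaker end (2.24%) and 219 a fallen one (2.77%).

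The largest risen share was at chr12:56347561-56347890 on the plus strand, set against chr12:56366202-56366616. The upstream end held 13.8%, 12.5% and 17.01% of the pair's reads with DMSO and 55.6%, 58.3% and 53.2% with cisplatin. It thus went from the minor to the major end in every pair, with a log2 change of the ratio of 2.92 ± 0.28 (SE, adjusted p = 4.95e-04). The upstream end itself rose by a log2 change of 2.76 ± 0.21 (SE, adjusted p = 4.73e-05), and the downstream end had -0.16 ± 0.15 (SE, adjusted p = 0.545).

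The share of chr7:138745079-138745376 on the minus strand, against chr7:138730629-138731082, was 15.1%, 13.2% and 14.7% with DMSO and 37.7%, 40.9% and 40.1% with cisplatin (log2 change of the ratio 1.98 ± 0.26 SE). The share of chr15:89738775-89739174 on the plus strand, against chr15:89743799-89744143, was 12.7%, 12.0% and 8.99% with DMSO and 35.0%, 29.1% and 34.8% with cisplatin (1.94 ± 0.32 SE). In the latter the upstream end was called risen by itself (adjusted p = 0.0275), and the downstream end was called fallen, with a log2 change of -0.85 ± 0.21 (SE). The share of chr16:23678838-23679099 on the plus strand, against chr16:23701186-23701693, was 1.37%, 1.21% and 2.08% with DMSO and 5.26%, 6.92% and 7.97% with cisplatin (2.22 ± 0.32 SE). There the downstream end fell by 1.22 on the log2 scale (adjusted p = 3.51e-04), and the upstream end, at a log2 change of 1.00, was not called (adjusted p = 0.0611). The remaining 2 of the 6 named rises, at chr19:8387466-8387624 on the minus strand and chr20:3208058-3208345 on the minus strand, went from mean shares of 2.09% ± 0.49 and 2.92% ± 1.04 to 7.86% ± 1.12 and 9.98% ± 3.56 (SD, n = 3).

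Several falling shares went with a rising downstream end. Pairs were called on the same reads as single ends, so a called member is likely in them. Over all measured ends 4.91% rose and 5.56% fell. Of the 11 pairs with a risen share, 4 had a downstream end that was called by itself and 7 an upstream end. Of the 27 pairs with a fallen share, 21 had a downstream end that was called by itself and 19 an upstream end that was called by itself, and the 27 pairs held 20 different downstream ends. The largest was at chr1:911086-911269 on the plus strand against chr1:949649-949926, one of the 12 steepest rises, which was the stronger end of the pair with cisplatin but not with DMSO. The upstream share went from 63.2%, 51.2% and 53.1% to 11.8%, 16.4% and 4.74% (log2 change of the ratio -3.52 ± 0.50 SE). The upstream end itself had a log2 change of -0.06 ± 0.30 (SE, adjusted p = 0.929). At chr19:40946748-40946905 on the minus strand, against chr19:40928344-40928770, the share went from 38.9%, 30.0% and 33.0% to 3.53%, 6.497% and 4.06% (-3.33 ± 0.37 SE), also with the downstream end risen.

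The reverse case was chr16:54148231-54148382 on the plus strand, one of the 12 steepest falls, again with an upstream end that was not the weaker one with DMSO. Against chr16:54179891-54179911 its share went from 44.2%, 63.1% and 52.9% to 10.4%, 23.2% and 7.50% (-2.85 ± 0.48 SE), and the downstream end had a log2 change of -0.01 ± 0.23 (SE). At chr1:94353573-94353713 and chr11:27390274-27390465, both on the minus strand, the upstream end fell and the downstream end rose. With cisplatin the first upstream end had 6, 7 and 5 reads, at or near the listing floor, and the second 16, 31 and 8. Their mean shares went from 16.6% ± 2.13 to 2.83% ± 1.80 and from 26.8% ± 6.67 to 6.11% ± 3.26 (SD, n = 3). At chr1:201849928-201850245 on the plus strand the mean share went from 53.1% ± 11.2 to 16.2% ± 4.76 (SD, n = 3), with the downstream end risen by a log2 change of 1.65 ± 0.35 (SE). This upstream end too was not the weaker one with DMSO, and it had 9, 18 and 6 reads with cisplatin.

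**Figure D4:**
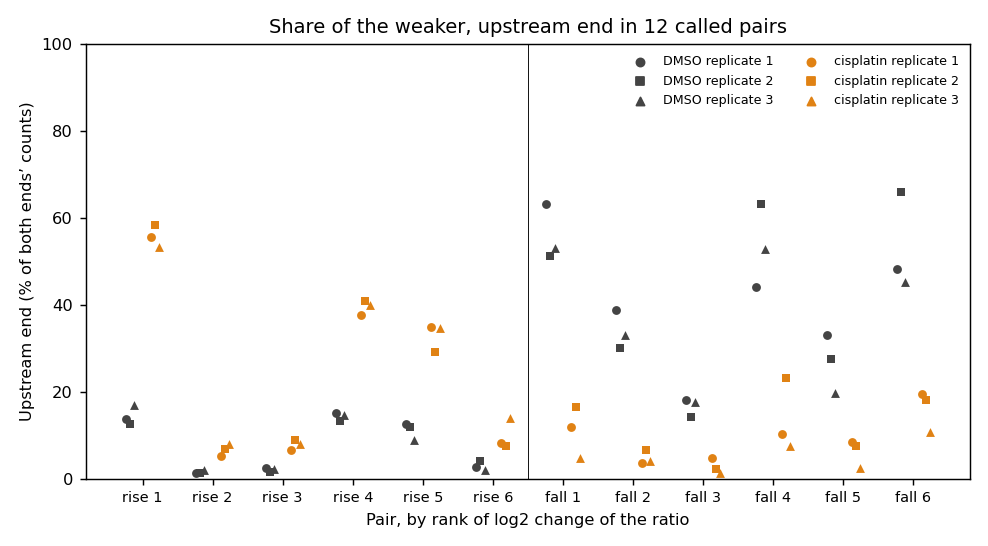
Share of the upstream end in the summed reads of a pair of ends, in percent, for the 6 largest rises and the 6 largest falls of that share, in each of the 6 libraries (dark DMSO, orange cisplatin, shape by replicate). Rise 1 goes from 12.5% to 17.01% with DMSO to 53.2% to 58.3% with cisplatin, and fall 1 from 51.2% to 63.2% to 4.74% to 16.4%.

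To see where the response of polysomes differed from that of the cytosol, the 6 A549 cytosol libraries, DMSO and cisplatin again 3 a side, entered a fit of 12 libraries with the interaction of fraction and treatment. The 2 comparisons share no library. That does not make them independent, since heavy polysomes lie in the cytosol and both fractions may come from the same cultures. Over the 17833 ends listed in all 12 libraries, 0 had a called difference between the responses (0%) in edgeR, where 555 (3.11%) had an unadjusted p under 0.05. That share was below the 0.05 that such a threshold passes where no end differs. In DESeq2 0 were called, and 119 had such a p. The median 95% interval of the difference reached 0.77 to either side on the log2 scale, and for 49.5% of the ends the whole interval lay within 1 of no difference. Differences below that size were not resolved at most ends, and the test does not show that the fractions respond alike.

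The cytosol libraries moved with the polysome libraries. In the cytosol, 1632 of the 17833 ends rose (9.15%) and 1526 fell (8.56%). Of the 1056 ends risen in polysomes that were in this fit, 1051 had a cytosol log2 change above 0, against 52.3% of all ends in it, and 801 (75.9%) were called risen in the cytosol. Of the 958 fallen ones, 953 had a cytosol change below 0, against 47.7% of all ends in the fit, and 742 (77.5%) were called fallen. None were called in the opposite direction. The median cytosol change was 0.88 for the ends risen in polysomes and -0.98 for those fallen, against 0.99 and -1.07 in polysomes in the same fit.

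Of the 12 steepest polysome rises 11 were in the fit, with cytosol log2 changes from 2.69 to 3.71. The end at chr6:36654213-36655186 had a cytosol change of 3.56 ± 0.13 (SE) and a difference, polysome minus cytosol, of 0.29 (95% interval -0.08 to 0.66). At chr17:72858611-72858912 the difference was -0.17 (95% interval -0.45 to 0.11). The widest gap among the 11 was at chr12:69237659-69238124, where polysomes had 3.65 and the cytosol 2.71, a difference of 0.93 (95% interval 0.30 to 1.56) with an unadjusted p of 0.00661 in edgeR, which became 1.00 after adjustment.

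Of the 12 steepest falls 3 were in the fit, since the other 9 were missing from at least 1 cytosol list. At chr7:133750238-133750521 the cytosol change was -3.35 ± 0.33 (SE) and the difference -0.96 (95% interval -1.98 to 0.05). The missing lists were those of cisplatin libraries. The end at chr10:34400040-34400159 had 49, 43 and 37 cytosol reads with DMSO and stood in no cytosol cisplatin list, and the end at chr7:1855424-1855640 had 56, 66 and 40 with DMSO and 7 in the 1 cisplatin list that held it.

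**Figure D5:**
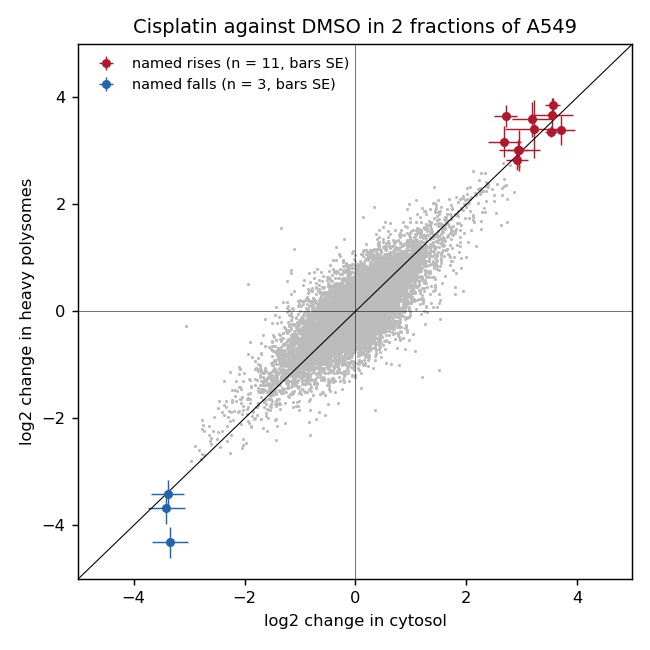
Log2 change of cisplatin against DMSO in cytosol and in heavy polysomes for 17833 ends listed in all 12 libraries (grey), with the line of equal change. The 11 steepest polysome rises in the fit (red) lie at cytosol changes of 2.69 to 3.71 and the 3 falls (blue) at -3.41 to -3.35, with SE bars.

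The 6 most abundant ends had log2 changes between -0.53 and 0.23. By mean CPM the first was chrM:467-16571 on the plus strand, a stretch that spans nearly the whole mitochondrial genome and so pools the ends of its transcripts. It had 11894, 12667 and 21697 CPM with DMSO and 13703, 14231 and 27059 CPM with cisplatin (log2 change 0.23 ± 0.07 SE, adjusted p = 0.0533). It crossed the threshold with RLE scaling (adjusted p = 0.0476). The mitochondrial stretch chrM:1-462 on the minus strand had 5766, 5861 and 21558 CPM with DMSO and 4814, 5018 and 16265 CPM with cisplatin, a fall of 0.30 ± 0.07 (SE, adjusted p = 0.0269) that was not called without replicate 1 (adjusted p = 0.194), without replicate 2 (adjusted p = 0.211), without the replicate term (adjusted p = 0.893) or in DESeq2 (adjusted p = 0.363). In the cytosol the same stretch had a log2 change of 0.24 ± 0.09 (SE, adjusted p = 0.0740), and the difference between fractions was -0.56 (95% interval -0.82 to -0.30, unadjusted p = 4.11e-04 in edgeR, adjusted p = 1.00). The spread between replicates here exceeded that between treatments, with replicate 3 the highest in both.

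Of the 4 nuclear ends in the top 6, chr12:53346504-53346705 on the plus strand fell from 22919, 20141 and 4851 CPM to 16430, 13981 and 3228 CPM. It was lower with cisplatin in each pair (log2 change -0.53 ± 0.07 SE, adjusted p = 0.00108), although the groups overlapped through replicate 3, and it was not called without the replicate term (adjusted p = 0.842). The end at chr1:8921035-8921492 on the minus strand went from 9761, 9792 and 7661 CPM to 7265, 7162 and 6678 CPM (-0.36 ± 0.08 SE, adjusted p = 0.0172), a call lost without replicate 1 (adjusted p = 0.205), without replicate 2 (adjusted p = 0.270), without the replicate term (adjusted p = 0.239) and in DESeq2 (adjusted p = 0.247). The ends at chr7:134225790-134226244 and chr12:6647243-6647551, both on the plus strand, each had a log2 change of -0.17 and were not called (adjusted p = 0.227 and 0.137).

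The mitochondrial share of all listed counts was 0.959%, 1.13% and 4.67% with DMSO and 1.03%, 1.21% and 4.56% with cisplatin. The mean difference of 0.0130 percentage points was far below the spread between replicates (exact two-sided permutation test, p = 1, smallest possible 0.1). The share of counts in measured ends did not differ between the groups either beyond that spread, at 68.1% ± 23.99 with DMSO and 68.1% ± 23.5 with cisplatin (SD, n = 3; exact permutation p = 1).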

How the data were processed

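The authors deposited, per library, a list of peaks with position, strand and a whole-number read count; these counts were used as deposited. The smallest listed count was 5. Bowtie2 2.2.5, bedtools 2.17.0 and SAMtools 1.1 are named, without their roles, in the submitters' processing notes, as is the mouse build mm9, whereas chromosome names and lengths in the lists fit hg19. The sources used here do not give the rules for calling and filtering peaks. Peaks sharing at least 1 base on a strand were merged. Ends listed in all 6 libraries were tested with edgeR 4.0.16 (R 4.3.3; TMM factors over these ends, robust quasi-likelihood test, replicate number as a block, Benjamini-Hochberg over all ends). DESeq2 1.42.0 was an alternative. The block was kept because deviations from group means correlated between same-numbered libraries (0.419, 0.432 and 0.502; -0.365 to 0.073 between others). Per-pair values used log2(CPM + 0.5). The scripts were tested on simulated data.

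Named were the 12 steepest rises and 12 falls among calls of 1 direction in all 3 pairs, 6 pairs of ends each way and the 6 ends of highest CPM. Requiring listing in all 6 libraries leaves out ends lost completely and ends listed only after cisplatin. Gene lists could not be applied without an annotation. The comparison, members and lists were chosen with earlier results of these data known.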

Additional observations from a re-analysis of the deposited data

Results flagged for a closer look

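Skipped peak numbers were sought between the nearest listed peaks on either side of an end, over both strands. A total of 102 ends stood in all 3 cisplatin lists and in no DMSO list, with no number skipped around them in any DMSO list. Under the same condition, 51 stood in all 3 DMSO lists and no cisplatin list. They lie outside the test of measured ends. The end at chr22:19957390-19957618 on the minus strand, for example, had 29, 66 and 110 reads with cisplatin, and that at chr13:95056399-95056578 on the plus strand had 41, 43 and 18 reads with DMSO; both were chosen after their values were seen. In all, 494 ends were gained and 347 lost, with or without skipped numbers, and at 99 and 76 of them every list lacking the end skipped a number around it. The largest of these, chr10:5041390-5041481 on the minus strand, had 2539, 5327 and 1372 reads with cisplatin, and a list lacking an end therefore does not give a count of 0.

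In the longer lists of replicates 1 and 2 alone, 1048 called ends stood in neither list of replicate 3. Among the 38108 ends that replicate 3 did not list, 327 rose (0.858%) and 721 fell (1.89%), against 2510 (11.0%) and 2189 (9.59%) of the 22827 measured ends. The former were narrower, with a median width of 59 bases against 212, and had a median mean count of 20 against 46.3. The end at chr5:75960845-75960955 on the plus strand had 50 and 107 reads with DMSO and 8 and 14 with cisplatin, and that at chr16:4065581-4065627 on the plus strand had 13 and 11 and then 60 and 51. Some of these calls were carried by 1 pair. The steepest fall, chr17:35500500-35500878 on the minus strand (log2 change -3.10 ± 0.28 SE, adjusted p = 1.44e-25 in edgeR), had 5 and 300 reads with DMSO and 10 and 21 with cisplatin, so its replicates moved in opposite directions. The steepest rise, chr7:105244689-105244864 on the plus strand, went from 6 and 16 reads to 13 and 118. These 4 ends were chosen after their values were seen.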

How the results depend on the processing

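Against 2389 called ends, 277 were called with no replicate block, 6140 in the long lists of replicates 1 and 2 alone, 2 over all merged peaks with no count minimum and 0 over those with a mean count of at least 5, where 7381 had an unadjusted p under 0.05 in edgeR. In both settings over all merged peaks, an end missing from a list entered as a count of 0, although its true count is not known. Leaving out 1 pair of libraries gave 773 to 5165. RLE scaling, DESeq2, a mean count of at least 20, merging across 50 bases and library totals kept the count within 1.5 times, with 2383, 1622, 2200, 2336 and 2371 calls. With library totals, chosen after seeing the data, rises outnumbered falls, 1274 to 1097. Against 38 called pairs of ends, 13 were called with no replicate block, 4 with neighbours within 10 kb, 332 with a replicate block on the ratio too, and 0 to 86 without 1 pair of libraries. The cause of these differences was not tested. The difference between fractions stayed at 0 calls in the 6 alternatives run, which leave out polysome pairs but no cytosol pair. The shares of counts moved by less than the spread between pairs. All 12 named falls and 12 named rises lost their call where all merged peaks of mean count 5 or more were tested, and 22 of the 24 with no minimum. With no replicate block, 4 of the 12 rises and 1 of the 12 falls lost it. Of the 12 named pairs, 7 lost their call with no replicate block and all 12 without replicate 1 or without replicate 2. None of the named results reversed.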

Other observations

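The distance between the ends of a pair went with the direction of its change when the replicate block was put on the ratio too, a fit chosen after seeing the data. With the weaker end upstream and at most 3 kb away, 18 of 3633 shares of that end rose and 3 fell. With the weaker end downstream and at most 3 kb away, 6 of 3061 of its shares rose and 47 fell. Among the few called pairs the upstream end thus gained on the downstream one more often than the reverse in both arrangements. Over all distances in that fit, 1.41% of 10080 shares of a weaker upstream end rose and 1.88% fell. With the weaker end downstream, 2.24% of 7919 rose and 2.77% fell. At 10 to 50 kb the order differed, with 96 rises and 165 falls among 4403 upstream pairs and 150 rises and 118 falls among 3566 pairs with the weaker end downstream. In the fit without that block the counts within 3 kb were 0 and 0, and 1 and 4. The median changes of the ratio within 3 kb were small, 0.02 and -0.11 on the log2 scale with the block on the ratio. Which end is the weaker was decided over all 6 libraries; where it was the weaker under both treatments, the counts within 3 kb were 12 and 3, and 4 and 39. Pairs share ends with each other, and no test over samples was run on these counts.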
